A study of Homo sapiens with 15 samples.

Results

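The effect of glucosamine (GlcN) on gene expression in the presence of alloxan was measured in MH7A cells, an established human synovial cell line, by setting the arrays labelled GlcN and Allo against the arrays labelled Allo, each pair from the same repeat of the experiment. These are 6 of the 15 arrays of the series, 3 GlcN+alloxan and 3 alloxan, numbered by experiment 1 to 3. All 6 cultures were stimulated with IL-1β at 15 pg/ml for 13 h. Before IL-1β, GlcN+alloxan cells had first been given 5 mM alloxan, for 30 min, and after that 2 mM alloxan together with 5 mM GlcN, for 2.5 h. In the study's account, the time with GlcN covered these 2.5 h and the 13 h of IL-1β. Alloxan cells received alloxan and no GlcN, and the labels do not spell out the schedule of alloxan for these cells or whether it stayed during the 13 h. The other 9 arrays, 3 each of GlcN without alloxan, IL-1β alone and resting cells, entered the same fit, and the pair GlcN against IL-1β was used as the comparison without alloxan. Cells of the GlcN and IL-1β groups were also stimulated with IL-1β at 15 pg/ml for 13 h. The GlcN cells were given 5 mM GlcN from 2.5 h before IL-1β, and resting cells received none of these. Levels are log2 signals of transcript clusters on a whole-transcript Affymetrix array, and a difference of 1 on this scale is a fold change of 2. The labels number the repeats and say no more of how separate the cultures were, and all are of 1 cell line.

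GlcN is an amino sugar that cells take up and convert, through the hexosamine pathway, into UDP-GlcNAc, the donor for O-linked N-acetylglucosamine (O-GlcNAc) on proteins and for the sugar chains built in the endoplasmic reticulum (ER). The enzyme that adds O-GlcNAc is OGT, and alloxan was used in the study as its inhibitor, although alloxan is not selective for that enzyme. Cells answer ER stress and amino acid shortage with the unfolded protein response (UPR), which raises ER chaperones, and with the ATF4 programme, which raises amino acid synthesis and transport genes.

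The series' arrays had median log2 signals from 6.18 to 7.54, which followed the experiment and not the condition, so levels are compared within an experiment. On both arrays of a pair, 6445, 5996 and 4549 of the 33297 transcript clusters carried exactly the same deposited value in experiments 1, 2 and 3, and 242 of the 16872 genes tested did so in all 3. Of 14 synovial fibroblast markers, 8 lay above the 50th percentile of their array (median of the 6 arrays), with VIM at the 99.4th, while DCN, PRG4, FAP, PDGFRA and PDPN lay below the 20th. THY1 was the only one of all markers called, with -0.35. CD68 was the only one of 6 macrophage markers above the 50th percentile, and no T cell, B cell, endothelial or chondrocyte marker was. The log2 of the summed signal of the macrophage markers ran from 9.25 to 10.83 on GlcN+alloxan arrays and from 9.27 to 10.84 on alloxan arrays, and their part in the results was not tested.

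With alloxan present, GlcN upregulated 314 of the 16872 genes tested (1.86%) and downregulated 281 (1.67%), 595 in all (3.53%), at an adjusted p under 0.05 in limma's fit with the experiment as a block. Of these, 63 rose and 66 fell by at least 1.5-fold, and 18 rose and 10 fell by at least 2-fold. Before adjustment for multiple testing, 7.52% of all genes had a p under 0.05 and a higher signal with GlcN (1269) and 8.81% a lower one (1486), and unadjusted counts in a gene list are to be read against these shares. The largest increases were those of BEST1, SPX, INHBE, SLC6A9 and ALDH1L2, and the largest decreases those of IER3, KPRP, MIR21, F3 and DIO2. In the fit without the block, which treats the 3 experiments as unpaired, 0 genes passed (11 higher and 4 lower at an unadjusted p under 0.05), and with only these 6 arrays 0 passed (1687 and 1561 at an unadjusted p). Leaving out a whole experiment left 43 to 92 genes higher and 33 to 65 lower.

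SLC6A9, a glycine transporter, had log2 signals of 8.74, 9.65 and 10.03 on GlcN+alloxan arrays of experiments 1, 2 and 3, against 6.48, 7.88 and 8.27 on alloxan arrays. Every GlcN+alloxan array was above every alloxan array, and the difference was 1.93 ± 0.29 (SD of 3 experiments, 3.81-fold, adjusted p = 1.13e-06, limma). ALDH1L2, a mitochondrial folate enzyme, had 9.09, 9.99 and 10.09 with GlcN and alloxan, against 7.05, 8.12 and 8.38 with alloxan, a difference of 1.88 ± 0.16. ASNS, which makes asparagine, had 9.42, 10.21 and 10.25 on GlcN+alloxan arrays, against 7.59, 8.70 and 8.88 on alloxan arrays, a difference of 1.57 ± 0.24. Neither gene's signals overlapped between the groups. HSPA5, the major ER chaperone known as BiP, was already bright in alloxan cells, with 13.06, 13.67 and 13.75 in GlcN+alloxan cells, against 11.66, 12.48 and 12.70 in alloxan cells. Its groups did not overlap either, and it rose by 1.21 ± 0.18 (2.31-fold, adjusted p = 2.78e-05, limma).

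BEST1, a chloride channel gene, showed the largest difference, 2.09 ± 0.29 (4.25-fold), followed by SPX, which encodes the peptide spexin, at 2.02 ± 0.37 and INHBE, an activin subunit gene, at 1.94 ± 0.30. Also among the 15 were SLC7A11, the cystine importer (1.57 ± 0.28), HERPUD1, an ER protein degradation factor (1.49 ± 0.21), DDIT3, which encodes the transcription factor CHOP (1.28 ± 0.15), and WARS1, the tryptophanyl-tRNA synthetase (1.25 ± 0.12). The others were DNAJC3, ERO1B, MANF and PHGDH, with differences from 1.02 to 1.16. All 15 stayed past the threshold whichever of the 6 arrays was left out, and 13 of 15 whichever experiment was left out. The exceptions were SLC7A11, called in 1 of these 3 fits, and DDIT3, called in 2.

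Among the 15 largest decreases, IER3, an immediate early gene that responds to stress and NF-κB, had 9.18, 10.04 and 10.15 in GlcN+alloxan cells, against 10.63, 11.41 and 11.35 in alloxan cells. The groups did not overlap, and it fell by 1.34 ± 0.13 (adjusted p = 0.000155, limma). F3, the tissue factor that starts blood clotting, had 7.47, 8.67 and 9.16 with GlcN and alloxan, against 8.76, 9.94 and 10.25 with alloxan. Its signals overlapped across experiments but were lower within each, and it fell by 1.21 ± 0.11. IL7R, a cytokine receptor, fell by 1.03 ± 0.17, DUSP6, the phosphatase that switches off ERK, by 1.01 ± 0.18, CAVIN2, a caveola protein, by 0.95 ± 0.21, and BHLHE40, a transcriptional repressor, by 0.95 ± 0.21. Also in this set were KPRP, DIO2, MYEOV, FABP3, STC1 and the U1 RNA variant genes RNVU1-15 and RNVU1-19, with differences from -1.29 to -0.92. RNVU1-19 is uncertain because its 2 transcript clusters differed, with -1.07 and -0.20. Of the 15 genes, 11 stayed past the threshold whichever array was left out, the exceptions being KPRP, DIO2, RNVU1-19 and CXCL8, and 4 (IER3, F3, IL7R and CAVIN2) whichever experiment was left out.

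**Figure D1:**
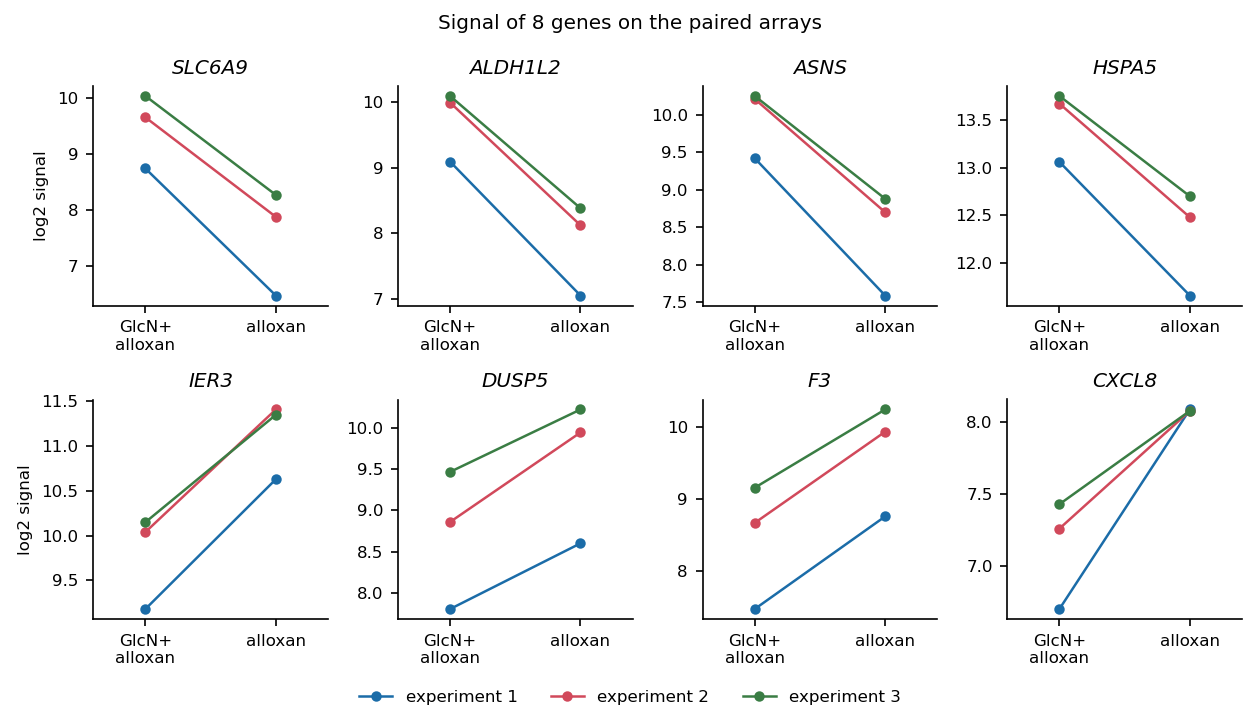
Log2 signals of 8 genes on the arrays of the GlcN+alloxan and alloxan groups, a line joining the 2 arrays of each experiment, with no averaging. SLC6A9, ALDH1L2, ASNS and HSPA5 were higher with GlcN in all 3 experiments, and IER3, DUSP5, F3 and CXCL8 were lower.

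ATF4 target genes had the largest median increase of the gene lists examined. Of 44 tested, 33 rose and 1 fell, where 1.86% of all genes were called higher and 1.67% lower, and the median difference was 0.68, against -0.01 over all genes. The gene that fell was GDF15, a stress-induced cytokine. Besides those above, PCK2, the mitochondrial enzyme that makes phosphoenolpyruvate, rose by 0.99 ± 0.10, PSAT1 of serine synthesis by 1.02 ± 0.09, and the amino acid carrier subunit SLC3A2 by 1.01. ATF5, ATF3, STC2, VLDLR, FGF21 and DDIT4 had differences from -0.41 to -0.04 that did not pass the test. Leaving out experiment 1, 2 or 3 left 22, 17 and 10 of the genes called higher, and leaving out single arrays left 27 to 31.

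The sequence upstream of ASNS is shown because it holds the element through which ATF4 and C/EBP proteins are known to act on this gene. RefSeq (GRCh38.p14) gives the 250 bases before its start at chr7:97872409-97872658 on the minus strand, with the response element TGATGNAA in capitals.
ASNS: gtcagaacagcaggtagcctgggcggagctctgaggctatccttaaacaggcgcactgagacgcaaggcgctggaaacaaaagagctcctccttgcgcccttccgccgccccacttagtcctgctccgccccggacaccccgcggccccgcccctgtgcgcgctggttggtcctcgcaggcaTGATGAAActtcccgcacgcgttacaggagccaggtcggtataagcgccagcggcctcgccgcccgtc
The match lies 68 to 61 bases before the start. The same letters were searched on both strands in windows of 250 bases before to 50 after each start, using all 35116 windows of 27305 genes, and a gene was counted if any of its windows held a match. They were found for 10 of the 27 upregulated ATF4 targets that had a window (37.0%), for 30 of 263 upregulated genes (11.4%), for 15 of 217 downregulated genes (6.91%) and for 3.19% of the 13149 tested genes with a window. A match is a stretch of letters and not a measured binding site. The list was drawn up as ATF4 targets with earlier results of these data known, so its share is not independent evidence. Other upregulated ATF4 targets held it in these contexts, each with 8 flanking bases.
SLC1A5: gaagtggcTGATGCAAgctgtcca
CEBPG: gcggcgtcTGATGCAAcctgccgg
AARS1: tctcgcagTTGCATCAgccaagtt
CHAC1: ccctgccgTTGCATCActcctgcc
SLC1A5, a glutamine carrier, and CEBPG, a C/EBP family transcription factor, hold it on the strand of the gene and rose by 0.43 and 0.76. The rise of SLC1A5 is uncertain because its 2 transcript clusters differed, with 0.43 and 0.09. AARS1, the alanyl-tRNA synthetase, and CHAC1, a glutathione-degrading enzyme, hold it on the opposite strand and rose by 0.93 and 0.59.

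Most ER chaperone and UPR genes rose. Of 35 tested, 26 rose and 0 fell (32 and 0 at an unadjusted p, limma), 34 had a positive mean difference and 33 were higher in all 3 experiments, as were 16.8% of all genes. ERO1A, an oxidase of the ER, was the exception with -0.06. The median difference was 0.446 and varied little between experiments, with 0.448, 0.476 and 0.449. PDIA4, a protein disulfide isomerase of the ER, had 11.29, 12.31 and 12.77 in GlcN+alloxan cells, against 10.30, 11.33 and 11.66 in alloxan cells. It was higher in each experiment by nearly the same amount, 1.02 ± 0.07 (adjusted p = 1.13e-06, limma). DNAJC3 and DNAJB11, co-chaperones of BiP, rose by 1.16 ± 0.05 and 0.78 ± 0.04, MANF, an ER-resident secreted protein, by 1.09 ± 0.12, and XBP1, a transcription factor of the response, by 0.96 ± 0.10. ERN1, the sensor IRE1, and ATF6, another sensor, had differences of 0.14 and 0.21 and did not pass. Without experiment 1, 2 or 3, 19, 16 and 13 members were called higher, and without single arrays 20 to 22.

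The ER stress element, CCAAT and CCACG with 9 bases of any kind between them, is the sequence through which ATF6 is known to act on chaperone genes. It is rare, being found on either strand in windows of 25 of 27305 genes (0.0916%). Of the 18 genes tested here that hold it, 12 rose with GlcN in the presence of alloxan and 0 fell. Put the other way, it stood in the windows of 12 of 263 upregulated genes (4.56%), of 0 of 217 downregulated genes and of 0.137% of the tested genes with a window. HSPA5 is printed as the member that rose most, with the 250 bases before its start at chr9:125241344-125241593 on the minus strand and the element in capitals.
HSPA5: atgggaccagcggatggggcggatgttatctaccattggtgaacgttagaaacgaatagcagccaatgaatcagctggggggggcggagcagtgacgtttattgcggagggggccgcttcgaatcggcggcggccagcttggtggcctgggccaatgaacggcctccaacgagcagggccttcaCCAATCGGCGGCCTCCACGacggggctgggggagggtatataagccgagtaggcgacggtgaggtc
The elements of further upregulated genes are given with up to 8 flanking bases to show how the unconstrained middle differs between them.
XBP1: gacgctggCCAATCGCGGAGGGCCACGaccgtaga
PDIA6: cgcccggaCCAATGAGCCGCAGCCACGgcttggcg
FICD: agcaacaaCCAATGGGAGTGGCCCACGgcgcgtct
ERO1B: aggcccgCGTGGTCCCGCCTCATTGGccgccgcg
CALR: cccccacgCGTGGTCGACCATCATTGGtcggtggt
TRIM5: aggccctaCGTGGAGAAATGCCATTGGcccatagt
In XBP1, PDIA6 and FICD the element runs along the gene, and in ERO1B, CALR and TRIM5 on the opposite strand. HSP90B1, the ER paralogue of the HSP90 chaperone, held 2 elements, 1 on each strand, and rose by 0.58 ± 0.02. CRELD2 and ALG12 lie head to head and share a single stretch (chr22:49918546-49918580), and rose by 0.54 ± 0.05 and 0.22 ± 0.06. EIF2A and SERP1 share another (chr3:150546702-150546736), with differences of 0.19 ± 0.05, past the threshold, and 0.32 ± 0.03, not past it (adjusted p = 0.0674, limma). TMEM120A, ZNF17, NLRP4, SYNPO and FRG2C hold the element and had differences from -0.19 to 0.15 that did not pass. CANX, the lectin chaperone calnexin, rose by 0.24 ± 0.06. TRIM5, an antiviral restriction factor, was not on the ER list and rose by 0.35 ± 0.05.

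**Figure D2:**
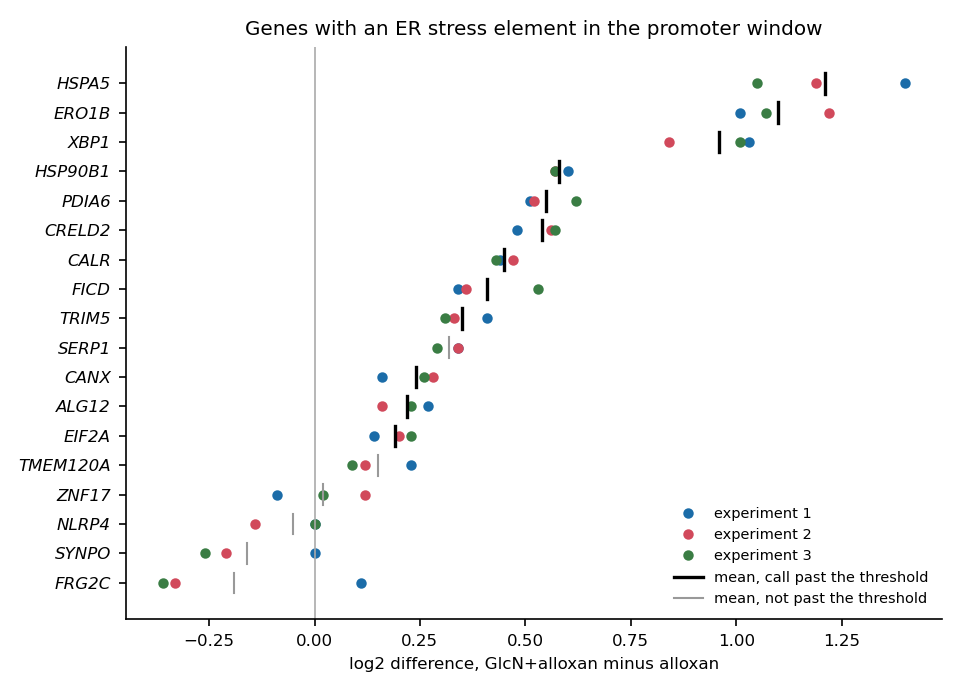
Log2 difference of GlcN+alloxan minus alloxan for the 18 tested genes whose RefSeq promoter window holds the ER stress element, a point per experiment and a bar at the mean of 3. The 12 genes called higher run from EIF2A at 0.19 to HSPA5 at 1.21, and SERP1 and the 5 genes with the smallest or negative means did not pass.

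Of 19 cytosolic aminoacyl-tRNA synthetase genes, 9 rose and 0 fell (12 and 0 at an unadjusted p, limma), led by WARS1 (1.25), AARS1 (0.93 ± 0.16), YARS1 (0.68 ± 0.11) and GARS1 (0.66). For this and the next lists, 1.86% of all genes were called higher and 1.67% lower. RARS1, HARS1, QARS1, FARSA, KARS1 and VARS1 had differences from -0.15 to -0.01 and did not pass. Of the 16 mitochondrial synthetase genes, 0 passed in either direction (0 higher and 1 lower at an unadjusted p, limma), and their differences lay between -0.13 and 0.14. Leaving out experiments 1, 2 and 3 left 7, 3 and 2 of the cytosolic genes called. In the serine and folate group, 6 of 16 rose, PHGDH and PSAT1 of serine synthesis and the mitochondrial folate enzymes SHMT2 (0.48), MTHFD2 (0.69), MTHFD1L (0.26 ± 0.02) and ALDH1L2. MTHFD2L, a further mitochondrial folate enzyme, had 0.02, and the cytosolic enzymes SHMT1, MTHFD1 and ALDH1L1 had -0.04, -0.10 and -0.07, and none of these passed. Without experiments 1, 2 and 3, 4, 2 and 2 genes of this group were called, and without single arrays 6 in every fit. Among 23 amino acid transporter genes, 8 rose and 0 fell (12 and 0 at an unadjusted p, limma), with SLC7A5, a leucine exchanger, at 0.79 ± 0.19, SLC1A4 at 0.76 ± 0.25 and SLC38A1 at 0.56 ± 0.06. SLC38A2, a further ATF4 target in this family, had 0.01. The lists overlap, so their counts are not separate results. PHGDH, PSAT1, SHMT2, MTHFD2, ALDH1L2, WARS1, AARS1, GARS1, SLC7A5 and SLC1A4 are also on the ATF4 list. Without experiments 1, 2 and 3, 4, 9 and 2 transporter genes were called, and without single arrays 7 to 9.

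**Figure D3:**
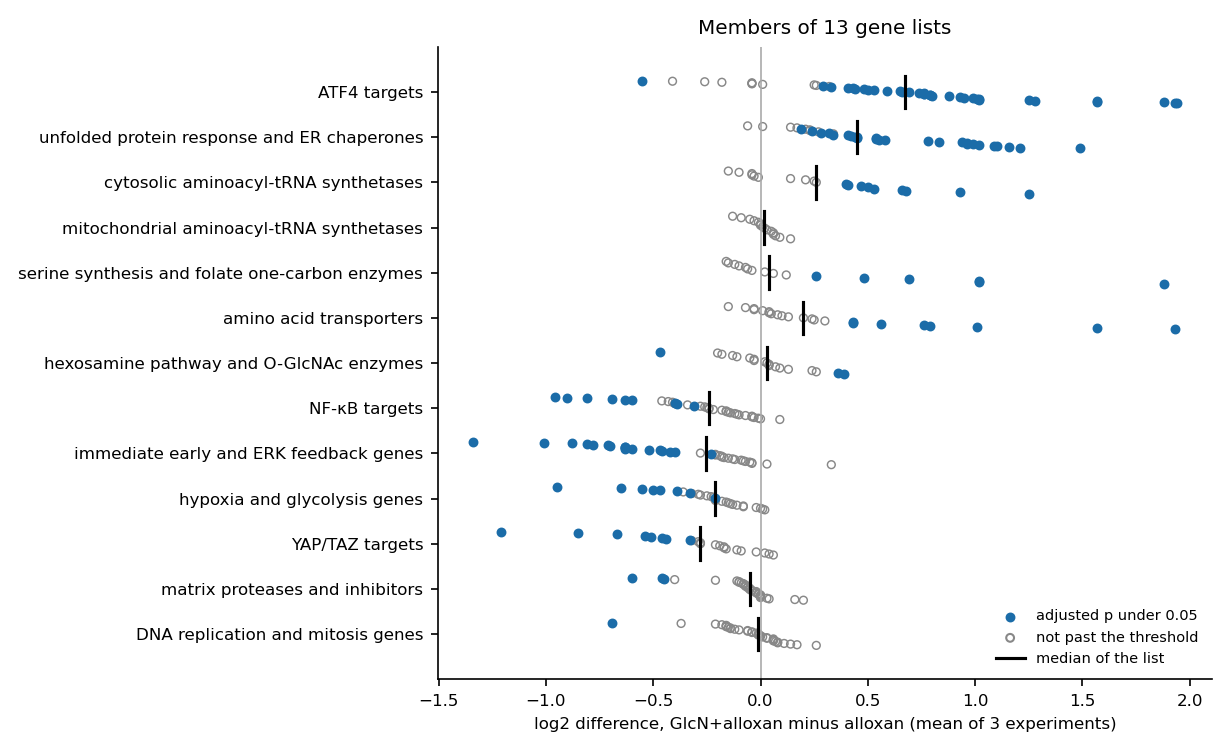
Log2 difference of GlcN+alloxan minus alloxan (mean of 3 experiments) for the members of 13 gene lists, a point per gene, filled where the adjusted p was under 0.05, with a bar at the list's median. ATF4 targets (median 0.68) and ER genes (0.446) lie to the right, mitochondrial synthetases around 0, and immediate early, NF-κB, hypoxia and YAP/TAZ genes to the left.

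Of 19 hexosamine pathway and O-GlcNAc genes, 2 rose and 1 fell (4 and 5 at an unadjusted p, limma), with a median difference of 0.03. Over all genes, 1.86% were called higher and 1.67% lower. GFPT1, the rate-limiting enzyme of the pathway, rose by 0.36 ± 0.09, OGA, which removes O-GlcNAc, rose by 0.39 ± 0.13, and HK2, a hexokinase, fell by 0.47 ± 0.20. OGT had 8.94, 10.12 and 10.27 with GlcN and alloxan, against 8.84, 10.05 and 10.19 with alloxan. The 3 differences, 0.10, 0.08 and 0.08, were small beside the fit's error (mean 0.09, adjusted p = 0.662, limma). SLC2A3, a glucose transporter, fell by 0.65 ± 0.21, the only call among 17 glucose transporter and MondoA genes, while TXNIP had -0.02. The calls of GFPT1 and OGA each held in 1 of the 6 fits without an array, and that of HK2 in 4. GFPT1, OGA, HK2 and SLC2A3 all lost the call in all 3 fits with an experiment left out. In the fit to only the 12 stimulated arrays, 0 of the 19 hexosamine and O-GlcNAc genes were called higher and 1 lower.

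Immediate early genes and the feedback inhibitors of ERK signalling held 18 of the decreases. Of 36 tested, 18 fell and 0 rose (25 and 1 at an unadjusted p, limma), where 1.67% of all genes were called lower, and the median difference was -0.25. DUSP5, a nuclear ERK phosphatase, had 7.80, 8.86 and 9.47 in GlcN+alloxan cells, against 8.60, 9.95 and 10.23 in alloxan cells. It was lower in each experiment, by 0.80, 1.09 and 0.76 (mean -0.88 ± 0.18, adjusted p = 4.75e-05, limma). The AP-1 subunit genes FOSL2, FOS and JUNB each had -0.63 and FOSL1 -0.52, all past the threshold, while JUN had -0.07 and JUND -0.04 and did not pass. KLF10, a transcription factor, fell by 0.78 ± 0.06, DUSP1 by 0.81 ± 0.08, and the ERK inhibitor SPRY4 by 0.70. NR4A3, an orphan nuclear receptor, went the other way with 0.33, not past the threshold. Without experiment 1, 2 or 3, 9, 6 and 9 members were called lower, and without single arrays 12 to 15. The AP-1 letters TGANTCA were found in the windows of 16.6% of downregulated and 7.98% of upregulated genes, against 7.66% of tested genes, but of only 1 of the 13 downregulated immediate early genes with a window (7.69%).

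YAP/TAZ targets, a set that reports cell shape and Hippo signalling, gave 8 lower of 23 and 0 higher (16 and 0 at an unadjusted p, limma), with a median of -0.28, where 1.67% of all genes were called lower. Besides F3, these were ANKRD1 (-0.85 ± 0.14), the matricellular genes CCN1 (-0.67 ± 0.18) and CCN2 (-0.46 ± 0.07), NT5E, EDN1, NUAK2 and GADD45B. Of 30 hypoxia and glycolysis genes, 8 fell and 0 rose (23 and 0 at an unadjusted p, limma), among them BHLHE40, the vasodilator peptide gene ADM (-0.65 ± 0.10), PFKFB4 (-0.55), ALDOC (-0.50) and PFKP (-0.33 ± 0.13). GAPDH had -0.02. The YAP/TAZ count was 2 to 3 without an experiment and 4 to 6 without single arrays, and the hypoxia count 0 to 2 without an experiment. The hypoxia count moved to 2 without the GlcN+alloxan array of experiment 2, to 3 without that of experiment 1 or the alloxan array of experiment 2 or 3, and to 13 without the GlcN+alloxan array of experiment 3. Among p53 targets, 3 of 19 fell and 0 rose (7 and 1 at an unadjusted p, limma). They were CDKN1A, a cell cycle inhibitor (-0.66 ± 0.04), PLK3 (-0.60 ± 0.06) and TP53INP1 (-0.30 ± 0.02). The p53 count was 2 or 3 without single arrays and 2, 1 and 2 without experiments 1, 2 and 3, and the call of TP53INP1 held in 1 of the 6 fits without an array and in 0 of the 3 without an experiment. In the replication and mitosis list only the G1 cyclin CCND1 passed, with -0.69 ± 0.27, of 36 genes (1 higher and 9 lower at an unadjusted p, limma), and its call held in 1 of the 6 and 0 of the 3 such fits. Collagens gave 1 lower of 22 (COL8A1, -0.46) and interferon-stimulated genes 1 higher of 24 (IRF9, 0.32), and both calls were lost whichever array was left out. Single calls in lists of this size are to be read against the 1.86% of all genes called higher and 1.67% called lower. Cholesterol and fatty acid genes gave 3 lower of 27, a count that was 1 without the GlcN+alloxan array of experiment 1 or 2, 4 without that of experiment 3 and 0 without any of the 3 alloxan arrays. NRF2 targets gave 1 higher (SLC7A11) and 1 lower (ABCC1, called in 2 of the 6 fits without an array) of 18.

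NF-κB targets and the cytokine genes followed by the study addressed whether GlcN lowered these genes while alloxan was present. The cytokine list holds proinflammatory and antiinflammatory members. Of 35 NF-κB targets, 9 fell and 0 rose (19 and 0 at an unadjusted p, limma), and 33 had a negative mean difference, where 1.67% of all genes were called lower, 8.81% were lower at an unadjusted p and 57.1% had a negative mean. Of 18 cytokine genes that the study had followed, 4 fell (7 at an unadjusted p, limma), and since that list came from work on these samples it is not independent evidence of their direction. The cytokine count was 2, 0 and 0 without experiments 1, 2 and 3. It was 1, 0 and 3 without the GlcN+alloxan arrays of experiments 1, 2 and 3, and 1, 2 and 1 without the alloxan arrays. CXCL8, which encodes the neutrophil chemokine IL-8, had 6.70, 7.26 and 7.43 in GlcN+alloxan cells, against 8.09, 8.08 and 8.08 in alloxan cells. The groups did not overlap, and the alloxan arrays were level with each other although the experiments' array medians differed by more than a log2 unit. It fell by 0.96 ± 0.39 (adjusted p = 0.0355, limma), with a range from -1.16 to -0.66 and adjusted p from 0.0175 to 0.293 when an array or experiment was left out, past the threshold in 1 of the 6 fits without an array and in 1 of the 3 without an experiment. IL6 had 6.37, 7.51 and 8.03 with GlcN and alloxan, against 7.75, 8.09 and 8.77 with alloxan. It was lower within each experiment, with overlap across them, and fell by 0.90 ± 0.43 (adjusted p = 0.0312, limma, and from 0.0394 to 0.22 with an array or experiment left out, past the threshold in 2 of the 6 and 0 of the 3 such fits).

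IL24, whose product signals through IL-20 receptors, had 6.34, 7.63 and 8.13 in GlcN+alloxan cells, against 6.81, 8.35 and 9.01 in alloxan cells, and fell by 0.69 ± 0.21 (adjusted p = 0.0106, limma, and from 0.0139 to 0.259 with an array or experiment left out, past the threshold in 4 of the 6 and 1 of the 3 such fits). The arrays overlapped across experiments and were lower with GlcN within each. TNF had 5.77, 6.53 and 7.09 with GlcN and alloxan, against 5.66, 6.80 and 7.14 with alloxan, and was higher in 1 experiment and lower in 2, with a mean of -0.07 ± 0.18 (95% interval of the fit -0.28 to 0.14, adjusted p = 0.788, limma). TGFB1, which the study counted as antiinflammatory, fell by 0.32 ± 0.08, TNFAIP3, the NF-κB inhibitor A20, by 0.81 ± 0.11, BCL3 by 0.63 ± 0.23 and LIF by 0.31 ± 0.15. These 4 calls held in 1 (TGFB1, TNFAIP3) or 2 (BCL3, LIF) of the 6 fits without an array and in 0 of the 3 without an experiment. CCL2, PTGS2, VCAM1 and IL1B had differences from -0.18 to -0.10 that did not pass. The NF-κB count was 2, 0 and 0 without experiments 1, 2 and 3, and 0 to 6 without single arrays, with 0 when the GlcN+alloxan array of experiment 2 was left out, 2 without that of experiment 1, 1 without the alloxan array of experiment 1 or 3 and 5 without that of experiment 2. Of 35 matrix proteases and inhibitors, 3 fell, where 1.67% of all genes were called lower. ADAMTS1, a protease that cuts cartilage proteoglycans, fell by 0.60 ± 0.12, ADAMTS12 by 0.46 ± 0.13 and MMP2, a gelatinase, by 0.45 ± 0.22, while ADAMTS6 had -0.40 ± 0.14 (adjusted p = 0.0727, limma). These 3 calls held in 2 (ADAMTS1, MMP2) or 1 (ADAMTS12) of the 6 fits without an array. Of the 3 fits without an experiment, the call of ADAMTS1 held in 1 and the calls of MMP2 and ADAMTS12 in 0.

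Small RNA genes were called lower about as rarely as all genes, of which 1.67% were called lower. The cluster named MIR21 had 6.82, 7.18 and 7.47 on GlcN+alloxan arrays, against 8.23, 8.81 and 8.22 on alloxan arrays, with no overlap, and fell by 1.26 ± 0.46 (adjusted p = 0.000679, limma). MIRLET7A2 fell by 0.62 ± 0.13 (adjusted p = 0.0468, limma), and these were the 2 calls among 89 microRNA genes tested. The call of MIRLET7A2 was lost whichever array was left out, and that of MIR21 in 2 of the 3 fits without an experiment. The mature products of both genes are shown with the seed, bases 2 to 8, in capitals (RefSeq, GRCh38.p14, chr17:59841273-59841294 on the plus strand for miR-21-5p, chr11 on the minus strand for let-7a). Array probes for such a gene do not separate mature from primary transcript.
hsa-miR-21-5p: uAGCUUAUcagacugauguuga
hsa-let-7a-5p: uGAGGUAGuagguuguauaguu
hsa-let-7a-2-3p: cUGUACAGccuccuagcuuucc
The 3 seeds differ. Of 81 C/D box snoRNA genes, 2 fell, SNORD50A (-0.56 ± 0.41) and SNORD55 (-0.27 ± 0.11), and the call of SNORD55 was lost whichever array was left out. The median of the C/D box genes was -0.44 in experiment 1, 0.00 in experiment 2 and 0.06 in experiment 3, so that only experiment 1 had a negative median. Without alloxan, 31 of the 81 were called lower, with a median of -0.42, where 6.62% of all genes were called lower in that comparison.

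The same comparison without alloxan, GlcN against IL-1β alone, uses 6 other arrays of the same experiments and gave 893 genes higher (5.29%) and 1117 lower (6.62%). Of the genes that rose with GlcN in the presence of alloxan, 213 of 314 (67.8%) were also called higher without it, which is 23.9% of the 893. For genes that fell the numbers were 211 of 281 (75.1%), or 18.9% of 1117. Across the 16872 genes the differences with and without alloxan had a Pearson r of 0.642 and a Spearman rho of 0.410, given as a description because genes are not independent replicates and both pairs come from the same experiments. Of the genes called in both comparisons, GDF15 and TP53INP1 had opposite directions. With alloxan the call of GDF15 held in 2 of the 6 fits without an array and that of TP53INP1 in 1, and neither held without an experiment (adjusted p up to 0.168 for GDF15 and 0.285 for TP53INP1, limma). The spread of the differences over genes was narrower with alloxan, an SD of 0.186, 0.182 and 0.167 in experiments 1, 2 and 3, against 0.245, 0.299 and 0.219 without it.

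ATF4 targets had a median difference of 0.676 with alloxan and 1.07 without, and 41 of 44 had the smaller value with alloxan, where 56.5% of all genes did. The list was chosen with earlier results of these data known, so its counts in this comparison are a description and not independent evidence. The 893 genes called higher without alloxan, picked by that call, had medians of 0.17 with alloxan and 0.37 without. UPR and ER chaperone genes had medians of 0.446 and 0.464, and 18 of 35 had the smaller value with alloxan. DDIT3 had 1.28 with alloxan and 2.22 without, INHBE 1.94 and 3.05, WARS1 1.25 and 1.99, and CEBPB 0.65 and 1.46. HSPA5, in contrast, had 1.21 with alloxan and 0.88 without, MANF 1.09 and 0.81, and XBP1 0.96 and 0.73. The alloxan arrays were also set against IL-1β arrays, with -0.40 for HSPA5 and MANF (adjusted p = 0.0118 and 0.00179, limma). INHBE had -0.41, not past the threshold (adjusted p = 0.133, limma). For DDIT3, WARS1 and CEBPB that difference was 0.60, 0.37 and 0.35, and only DDIT3 passed (adjusted p = 0.0147, 0.0648 and 0.11, limma). These values share the alloxan arrays with the GlcN differences, and their part in them was not tested. The test of the difference itself, the interaction of GlcN and alloxan, called 3 ATF4 targets and 0 ER genes at an adjusted p under 0.05, with 28 of 44 and 3 of 35 lower with alloxan at an unadjusted p (5.55% of all genes), and 1 and 5 higher (5.47%). Neither DDIT3 (adjusted p = 0.13) nor HSPA5 (0.382) passed that test in limma.

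**Figure D4:**
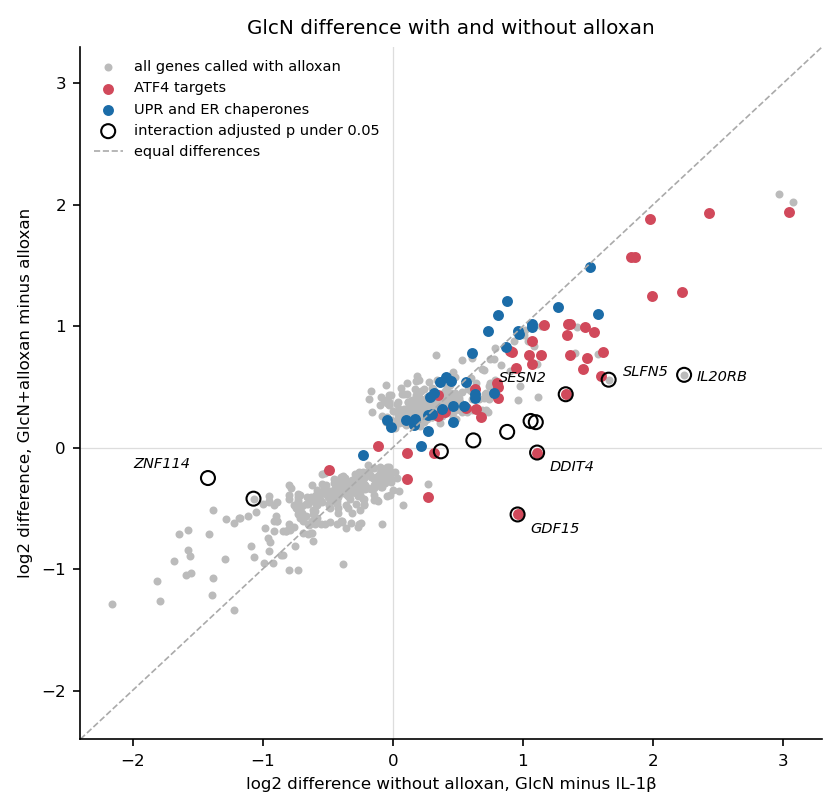
Log2 difference of GlcN+alloxan minus alloxan (vertical) against GlcN minus IL-1β without alloxan (horizontal), means of 3 experiments, for the 595 genes called with alloxan, all tested ATF4 targets and ER genes, and the 12 genes past the interaction test (circles). Red points lie mostly below the dashed line of equal differences and blue points on both sides of it, and GDF15 lies at 0.96 without and -0.55 with alloxan.

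In the interaction test, 10 genes had a lower GlcN difference with alloxan than without (0.0593% of those tested) and 2 a higher one (0.0119%). GDF15 had 9.76, 10.78 and 11.17 in GlcN+alloxan cells, against 10.29, 11.38 and 11.69 in alloxan cells, and 9.87, 10.69 and 10.81 in GlcN cells, against 8.64, 9.98 and 9.86 in IL-1β cells. GlcN went with a lower level where alloxan was present and a higher level where it was not, -0.55 ± 0.05 and 0.96 ± 0.26 (interaction -1.52, 95% interval -1.84 to -1.20, adjusted p = 0.00515, limma). In alloxan cells GDF15 was 1.63 above IL-1β cells, a value that shares the alloxan arrays with the result. SESN2, a leucine-sensing stress gene, had 8.16, 9.34 and 9.81 in GlcN+alloxan cells, against 7.66, 8.96 and 9.37 in alloxan cells, and 8.34, 9.41 and 9.84 in GlcN cells, against 6.81, 8.26 and 8.53 in IL-1β cells. It rose in both settings, by 0.44 ± 0.06 with alloxan and 1.33 ± 0.19 without (interaction -0.89, adjusted p = 0.00515, limma), and alloxan cells were 0.80 above IL-1β cells. DDIT4, an mTORC1 inhibitor gene, had differences of -0.04 ± 0.13 with alloxan and 1.11 ± 0.12 without (interaction -1.15, adjusted p = 0.0309, limma), with alloxan cells 0.88 above IL-1β cells.

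IL20RB, a receptor subunit for IL-20 family cytokines including IL-24, gave the largest interaction, -1.64 (95% interval -2.04 to -1.24, adjusted p = 0.0112, limma). It had 6.41, 7.21 and 7.66 in GlcN+alloxan cells, against 5.95, 6.55 and 6.98 in alloxan cells, and 8.23, 8.72 and 8.63 in GlcN cells, against 5.56, 6.45 and 6.85 in IL-1β cells. The GlcN arrays stood above the other 9 stimulated arrays, and the call with alloxan (0.60 ± 0.12) was lost whichever array was left out. Alloxan cells were 0.21 above IL-1β cells, not past the threshold (adjusted p = 0.363, limma). SLFN5 had 0.56 ± 0.06 with alloxan and 1.66 ± 0.25 without, and PDE5A, a phosphodiesterase of cyclic GMP, 0.21 ± 0.18 and 1.10 ± 0.16. CCBE1, a gene of lymphatic vessel growth, fell by 0.42 ± 0.20 with alloxan and had -1.07 without. ZNF114 had -0.25 ± 0.14 with alloxan, not past the threshold, and -1.42 without. The other genes past the test were HDDC3, THG1L, ZNF233 and CTBP1. No interaction was called without the block (1 higher and 0 lower at an unadjusted p, limma) or when an experiment was left out (450 to 1171 higher and 444 to 1103 lower at an unadjusted p).

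**Figure D5:**
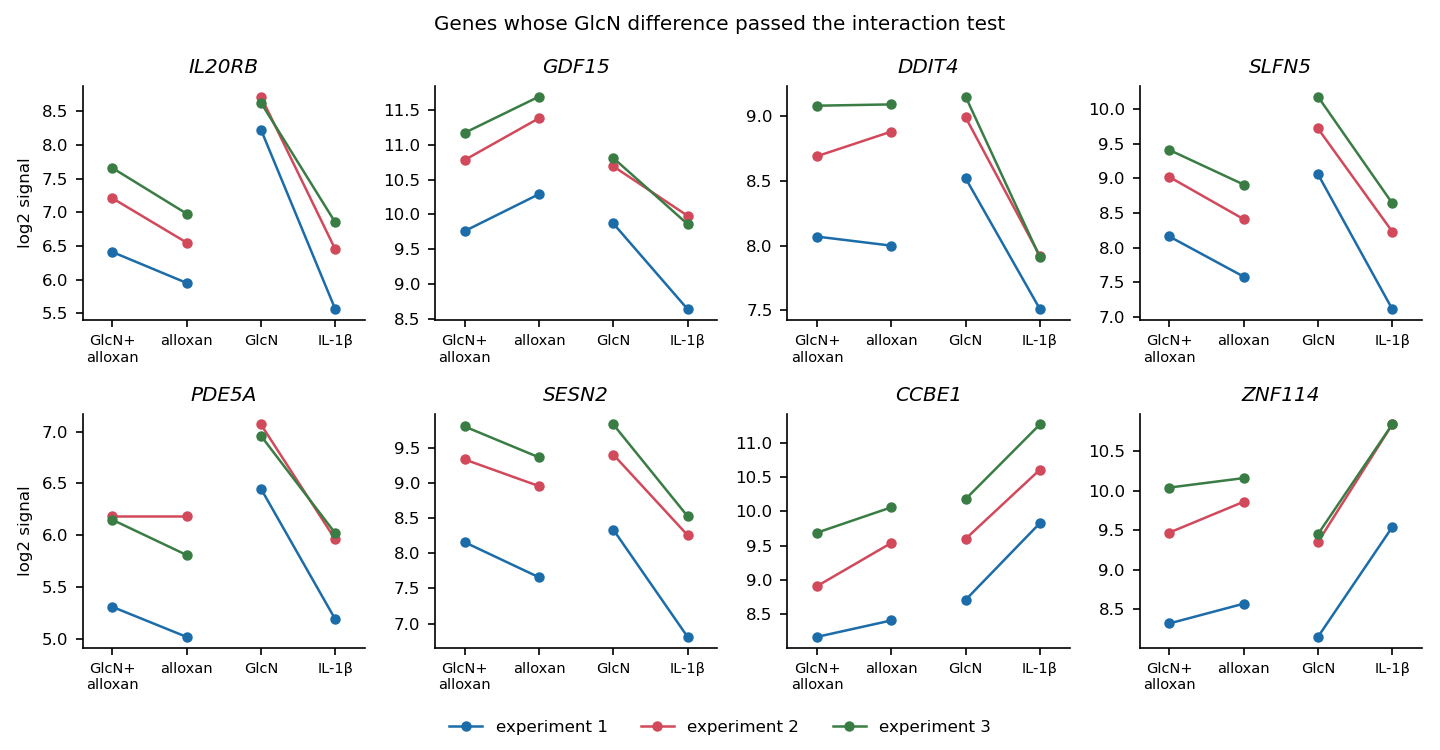
Log2 signals of 8 genes past the interaction test on the 12 stimulated arrays, a line joining the 2 arrays that form the GlcN difference in each experiment, with alloxan on the left and without on the right of each panel. Lines of GDF15 slope in opposite directions in the 2 settings, and those of IL20RB, SLFN5 and SESN2 are flatter with alloxan.

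For the cytokines the differences with and without alloxan could not be told apart by this test. CXCL8 had -0.96 ± 0.39 with alloxan and -0.38 ± 0.28 without (adjusted p = 0.328 without alloxan), and the interaction was -0.58 with a 95% interval from -1.25 to 0.09 (adjusted p = 0.498, limma). Alloxan cells were 0.90 above IL-1β cells for CXCL8, a value from the same alloxan arrays. IL6 had -0.90 with alloxan and -1.07 without (interaction 0.17, interval -0.45 to 0.79), and IL24 -0.69 and -0.91 (0.21, interval -0.17 to 0.59). For TNF the values were -0.07 and -0.31 (interaction 0.24, interval -0.06 to 0.53, adjusted p = 0.523, limma). The intervals do not show that the differences were equal.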

How the data were processed

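Total RNA from MH7A cultures was hybridised to Affymetrix arrays, 15 in 5 groups. The values deposited by the authors are log2 RMA signals of transcript clusters, made with the Expression Console software, whose version is not given in the sources used here. The study's own tests name the array annotation release na31 on build hg19. Within each experiment the 5 arrays had like distributions, which differed between experiments. The number of arrays limits the precision, and no detection call was used.

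Groups and experiment numbers came from the labels. Symbols came from the platform annotation, with 19429 clusters named through RefSeq (GRCh38.p14). Of 33297 clusters, 19460 had 1 symbol, 1754 several and 12083 none listed. Each symbol was represented by its brightest cluster, and symbols at or above an array's 20th percentile on 3 arrays or more were tested, 16872 genes in all. limma 3.58.1 (R 4.3.3, lmFit and eBayes) was fitted to all 15 arrays with 5 group means and the experiment as a block (8 residual and 11.1 total degrees of freedom), with two-sided p-values, Benjamini-Hochberg adjustment and a threshold of 0.05. The block was used because the comparison is defined in pairs, whereas the study's own t-test was unpaired. Arrays with the same number deviated together from their group means (r from 0.621 to 0.848 over 30 pairs, against -0.656 to -0.068 over 60 other pairs). P-values measure the spread between these arrays. In a simulation of GlcN+alloxan against alloxan over 16872 genes, the fit recovered 46, 50, 50 and 50 of 50 genes changed 1.5-, 2-, 4- and 8-fold, with 6 false calls. The simulated arrays had independent normal errors with the fit's own residual SDs around the same block model. The simulation therefore checks the computation and cannot show how the fit behaves where real errors depart from that model. Errors are SDs of the 3 within-experiment differences.

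Genes named were the 15 with the largest difference in each direction that were called and had the same sign in 3 of 3 experiments, up to 4 called members of each list with the smallest p, the 6 largest interactions in each direction, and IL6, CXCL8, IL24, TNF, OGT, ADAMTS1, ADAMTS6 and ADAMTS12. Others were named after their values were seen. The comparison and the gene lists were chosen with earlier results of these data known. Alternatives were no block, only the arrays compared, only the 12 stimulated arrays, other filters, the mean over clusters, quantile normalization, equal medians, an intensity trend, the methods' t-test, and leaving out arrays or experiments. Figures were drawn with matplotlib 3.10.9.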

Additional observations from a re-analysis of the deposited data

Results flagged for a closer look

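For 12 genes named in the report the GlcN difference was larger or smaller with alloxan than without by the test of the difference itself. The difference of differences was 1.17 for ZNF114 and 0.66 for CCBE1. It was -1.64 for IL20RB, -1.52 for GDF15, -1.15 for DDIT4, -1.10 for SLFN5, -0.89 for both PDE5A and SESN2, -0.84 for HDDC3, -0.76 for THG1L, -0.55 for ZNF233 and -0.39 for CTBP1.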

How the results depend on the processing

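The 314 genes called higher and 281 called lower kept their direction under every alternative that tested them. The filter at the 50th percentile tested 305 and 270 of them, and the others tested all. Without a replicate block, with the block over only the 6 arrays compared, and in the methods' t-test, 0 genes were higher and 0 lower (at an unadjusted p, 11 and 4, 1687 and 1561, and 9 and 6). With the block over the 12 stimulated arrays, 240 were higher and 203 lower, among them 221 of the 314 and 189 of the 281. Leaving out an array or an experiment gave 43 to 198 genes higher and 33 to 251 lower. The other settings gave 240 to 388 higher and 203 to 326 lower. For the interaction the main counts were 2 higher and 10 lower. They became 0 and 0 without a replicate block. The number higher was 4 in the 12 stimulated arrays, 8 with the filter at the 50th percentile, 13 with quantile normalization, 8 with equal medians and 4 with the intensity trend, and 19 were lower with quantile normalization. With an array or experiment left out, 0 to 4 were higher and 0 to 5 lower. The small values of DDIT4 (-0.04) and TNF (-0.07) turned sign when arrays or experiments were left out, ranging from -0.16 to 0.03 for DDIT4 (0.00 and 0.01 in other such fits) and from -0.18 to 0.03 for TNF (0.02 in another). The cause was not tested. Rescaling moved the median of all genes by under 0.1.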
